A study of Mus musculus with 12 samples.

Results

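Tubular injury markers are genes that kidney tubule cells transcribe more strongly once they are damaged, from healthy levels that differ widely by gene. The 9 followed here are Havcr1, Lcn2, Krt20, Clu, Spp1, Sox9, Cd44, Anxa2 and Sprr1a, found by symbol among the 24421 genes of the deposited matrices, with the transcript of highest total count standing for each gene. All 9 were present. They were measured by RNA-seq in 12 libraries of whole kidney from male C57BL/6 mice (C57BL/6J background in the study's methods) 6 weeks of age, 3 in each of 4 groups: wild-type (WT) and Tet2 knockout (Tet2-/-) kidneys at baseline, labelled healthy control, and the kidneys of both genotypes after ischemia-reperfusion (IR). The IR kidneys were right kidneys that had gone without blood flow for an hour, in mice that lost the left kidney in the same operation, and they were collected on the following day. The baseline mice are labelled as healthy controls, with no operation, so the IR effect holds the clamping together with anesthesia, surgery and loss of the other kidney. The knockout was germline, so every cell type of the mouse and not the tubule alone carried it. Tet2 encodes a dioxygenase that oxidizes methylated cytosine in DNA, and the question the design puts to these genes is whether its loss changed their level in the resting kidney or their response to IR.

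The knockout was checked first on Tet2 itself. Its FPKM (fragments per kilobase of transcript, scaled to the mapped total of the library) was 9.15, 6.25 and 7.33 in the WT baseline libraries and 9.24, 16.6 and 10.3 in the Tet2-/- baseline libraries. It was 9.34, 3.97 and 3.85 in WT IR and 2.64, 3.20 and 1.76 in Tet2-/- IR. The transcript was thus not lower in the libraries labelled Tet2-/- at baseline, where all 3 lay above the WT ones, and it was lower in them after IR. The part of the gene that was deleted was not given in the sources used here, so a count over the whole transcript neither bears out the labels nor goes against them, and the groups below are the libraries labelled WT and labelled Tet2-/-.

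The total count per library, with 1 transcript per gene, ran from 51007366 to 107969888. Whole kidney holds many cell types in changing shares, and in such tissue fewer cells of a type and less RNA per cell cannot be told apart. The 28 proximal tubule genes summed to 45484 to 64795 FPKM at baseline and were the most abundant of the cell type lists in every library. WT IR replicate 3 stood apart in the other cell types, with 18.6 FPKM summed over 9 endothelial genes against 63.9 to 213 in the 11 other libraries, and 4.73 over 6 podocyte genes against 16.1 to 92.3. WT IR replicate 1 was the lowest of the 6 IR libraries for 8 of the 9 members, all but Sprr1a. Summed over 10 adipocyte genes, WT baseline replicates 2 and 3 reached 147 and 291 FPKM and Tet2-/- IR replicate 3 reached 620, against 21.7 to 123 in the rest.

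The members work at different places in the injured nephron. Havcr1 encodes KIM-1, a receptor on the apical surface of proximal tubule cells that binds phosphatidylserine and lets them engulf dying neighbours, and Lcn2 encodes NGAL, a secreted protein that captures bacterial siderophores and is made by the distal nephron and by neutrophils; both are used in the clinic as urinary signs of acute kidney injury. Clu encodes clusterin, a secreted chaperone, and Spp1 encodes osteopontin, a secreted phosphoprotein that binds integrins and CD44. Krt20 is an intermediate filament keratin of gut and urothelial surface cells, and Sprr1a is a precursor of the cornified envelope of squamous epithelia. Sox9 is a transcription factor switched on in proximal tubule cells that go on to repair the epithelium, Cd44 is the hyaluronan receptor of many leukocytes and of injured epithelium, and Anxa2 is a calcium-dependent membrane protein that pairs with S100A10.

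In the WT kidney, IR was followed by a rise of Krt20, Lcn2, Havcr1, Spp1 and Clu. The estimates ran from 4.61-fold for Clu to 88.3-fold for Krt20. Sox9, Cd44, Sprr1a and Anxa2 also had estimates above 0 but did not pass the test. In the Tet2-/- kidney, all 9 rose, from 9.48-fold for Anxa2 to 6247-fold for Krt20. A gene was called where the quasi-likelihood F test of edgeR, run over all genes that passed the filter on low counts, gave an adjusted p under 0.05 with a change of more than 1 on the log2 scale. By that rule 5 of the 9 members were called higher in WT, beside 1.46% of the 16015 genes tested that were called higher and 0.887% called lower. In Tet2-/-, 9 of 9 were called higher, beside 12.7% higher and 11.6% lower of 16359. The median log2 fold change of the members was 3.61 in WT and 5.68 in Tet2-/-, against -0.03 and 0.04 over all genes tested. The ranges of IR and baseline FPKM were apart for 8 of the 9 in WT, with Anxa2 the exception, where 18.9% of all genes had IR wholly above baseline, and all 9 had an unadjusted p under 0.05, as 22.7% of all genes did. They were apart for 9 of 9 in Tet2-/-, where 40.5% did.

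**Figure D1:**
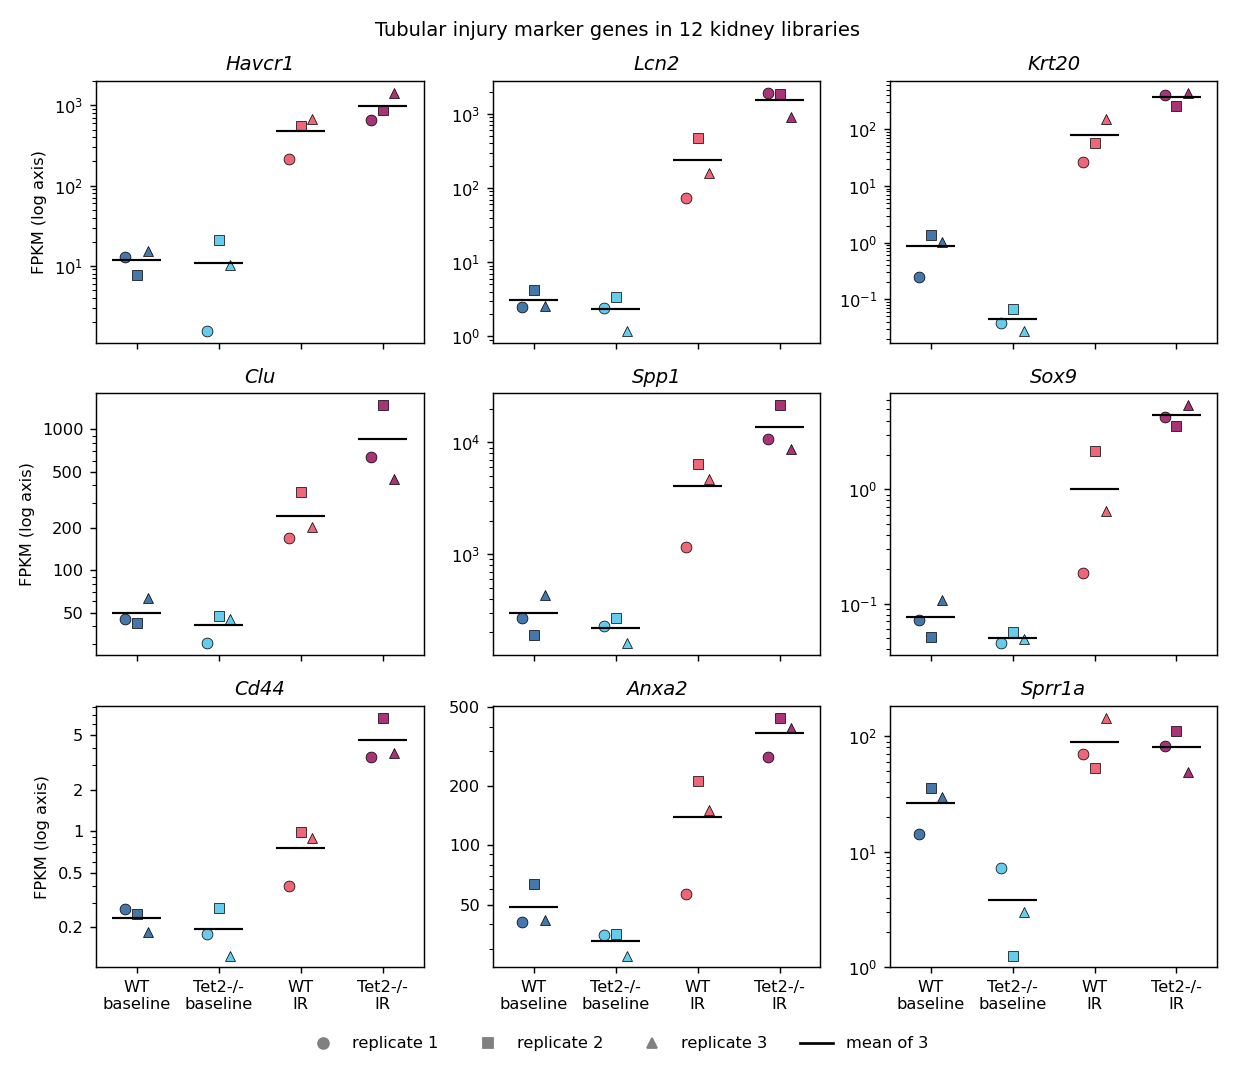
FPKM of each of the 9 genes (log axis, its own scale in each panel) in the 12 libraries, with circles, squares and triangles for replicates 1, 2 and 3 and a bar for the mean of 3. All IR libraries lie above all baseline libraries of their genotype except for Anxa2 in WT, where IR replicate 1 at 56.7 lies below baseline replicate 2 at 63.9.

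Havcr1 was measured on NM_001166631 (mm9, chromosome 11, 46564013 to 46593080, plus strand). Its FPKM was 12.8, 7.63 and 15.3 at WT baseline and 214, 559 and 670 after IR in WT. In the libraries labelled Tet2-/- it was 1.55, 20.9 and 10.1 at baseline and 652, 867 and 1432 after IR. The IR libraries stood far above baseline in both genotypes, and the widest scatter was at Tet2-/- baseline, where the highest library held 13.4 times the lowest. The log2 fold change with IR was 5.29 ± 0.56 (SE, n = 3 against 3, adjusted p = 0.00999 by the edgeR test) in WT and 6.26 ± 0.96 (adjusted p = 0.00202) in Tet2-/-. Havcr1 ranked 14th of 16015 genes by its rise in WT and 72nd of 16359 in Tet2-/-.

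Lcn2 lies on chromosome 2 (mm9, 32240157 to 32243259, minus strand) and was counted on its only listed transcript. Its FPKM was 2.47, 4.24 and 2.60 at WT baseline, and 2.38, 3.33 and 1.19 at Tet2-/- baseline. After IR it was 74.2, 476 and 158 in WT and 1923, 1849 and 908 in Tet2-/-. No baseline library came near any IR library, and the lowest Tet2-/- IR library was above the highest WT IR library. The rise was 6.17 ± 0.76 on the log2 scale in WT (adjusted p = 0.0135) and 9.13 ± 0.55 in Tet2-/- (adjusted p = 8.15e-05), both by the edgeR test.

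Krt20 (chromosome 11, 99289717 to 99299467, minus strand) had the largest rise of all genes tested in Tet2-/- and the 4th largest in WT. Its FPKM was 0.247, 1.37 and 1.01 at WT baseline and 26.6, 56.9 and 151 in WT IR. At Tet2-/- baseline it was 0.038, 0.067 and 0.028, which rests on 5.5, 19.5 and 5.0 counts, and in Tet2-/- IR it was 399, 261 and 436. The 4 groups did not overlap at all, with Tet2-/- baseline lowest, then WT baseline, WT IR and Tet2-/- IR. The log2 fold change with IR was 6.46 ± 0.94 in WT (adjusted p = 0.0224) and 12.61 ± 0.48 in Tet2-/- (adjusted p = 4.36e-05). The 95% confidence interval of the Tet2-/- fold ran from 2891 to 13497, and so few baseline counts stand under it that its size depends on them.

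Of the secreted proteins, Spp1 (chromosome 5, 104864130 to 104870072, plus strand) was the most abundant member in every group. It was listed at 268, 188 and 432 FPKM at WT baseline and 228, 268 and 161 at Tet2-/- baseline. After IR it was at 1163, 6394 and 4722 FPKM in WT and 10675, 21437 and 8742 in Tet2-/-. The IR libraries were all above baseline, with WT IR replicate 1 well under the other 2 of its group. The change was 3.73 ± 0.68 (adjusted p = 0.0389) in WT and 5.68 ± 0.50 (adjusted p = 0.000251) in Tet2-/- on the log2 scale, by the edgeR test. Spp1 alone took 0.0315% to 0.0827% of all counts at baseline, 0.223% to 1.22% in WT IR and 1.69% to 4.12% in Tet2-/- IR. It held the most counts of any gene in Tet2-/- IR replicates 1 and 2. The 9 members together took 0.0514% to 0.114% of all counts at baseline, 0.356% to 1.57% in WT IR and 2.49% to 5.10% in Tet2-/- IR. A library in which a few genes take that much leaves less of its depth for the others, which the normalization factors are meant to even out.

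**Figure D2:**
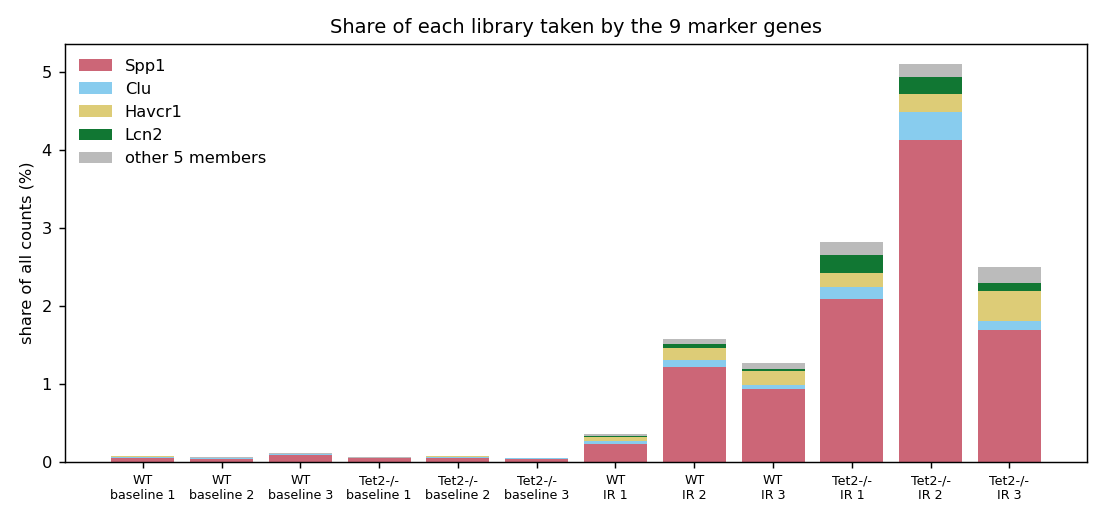
Share of all counts (%, from 0) in each of the 12 libraries taken by Spp1, Clu, Havcr1, Lcn2 and the other 5 members, stacked. The stack is at most 0.114% in any baseline library and reaches 5.10% in Tet2-/- IR replicate 2, most of it Spp1.

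Clu (chromosome 14, 66587320 to 66600382, plus strand) was at 45.4, 41.9 and 63.0 FPKM at WT baseline and 30.4, 47.4 and 45.3 at Tet2-/- baseline. It was at 168, 358 and 203 in WT IR and 633, 1482 and 445 in Tet2-/- IR. Its baseline was the tightest of the secreted members, and the 3 ranges from baseline to WT IR to Tet2-/- IR did not meet. Clu rose by 2.21 ± 0.32 in WT (adjusted p = 0.0210) and 4.08 ± 0.46 in Tet2-/- (adjusted p = 0.000590), as log2 fold changes from the edgeR test.

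Sox9 (chromosome 11, 112643524 to 112649071, plus strand) was close to silent at baseline, with 0.072, 0.051 and 0.107 FPKM in WT and 0.045, 0.056 and 0.049 in Tet2-/-. After IR it was at 0.186, 2.17 and 0.641 in WT and at 4.28, 3.58 and 5.43 in Tet2-/-. The WT IR libraries spread over 11.7 times, the widest of any member in that group, and the Tet2-/- IR libraries over 1.52 times. With that scatter the WT change of 3.61 ± 0.87 on the log2 scale did not pass the test (adjusted p = 0.0776), while the Tet2-/- change of 6.21 ± 0.30 did (adjusted p = 4.78e-05).

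Cd44 (chromosome 2, 102651300 to 102741822, minus strand) was at 0.272, 0.250 and 0.186 FPKM at WT baseline and 0.178, 0.278 and 0.125 at Tet2-/- baseline. It was at 0.403, 0.990 and 0.889 in WT IR and 3.43, 6.65 and 3.68 in Tet2-/- IR. All WT IR libraries were above baseline and under 1 FPKM, and the Tet2-/- IR libraries stood above every other library. The change was 1.64 ± 0.39 (adjusted p = 0.0745) in WT and 4.28 ± 0.37 (adjusted p = 0.000246) in Tet2-/-, by the edgeR test.

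Anxa2 (chromosome 9, 69301490 to 69339592, plus strand) was at 41.1, 63.9 and 41.9 FPKM at WT baseline, against 56.7, 212 and 151 in WT IR. It was at 35.4, 35.5 and 27.7 at Tet2-/- baseline and 279, 443 and 395 in Tet2-/- IR. In WT the groups overlapped through IR replicate 1, and the change of 1.46 ± 0.45 on the log2 scale did not pass (adjusted p = 0.127). In Tet2-/- it rose by 3.24 ± 0.22 (adjusted p = 0.000103).

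Sprr1a (chromosome 3, 92287876 to 92289803, minus strand) had baselines that lay far apart between the genotypes. Its FPKM was 14.3, 35.5 and 29.9 in WT and 7.19, 1.26 and 2.97 in Tet2-/- at baseline. After IR it was at 70.1, 53.2 and 145 in WT and 82.5, 111 and 49.2 in Tet2-/-. The IR groups lay on top of each other while the baselines were apart. The change with IR was 1.72 ± 0.49 in WT (adjusted p = 0.106) and 4.16 ± 0.61 in Tet2-/- (adjusted p = 0.00168).

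The WT call was sensitive to the test, to single libraries and to pairing. DESeq2 and the edgeR exact test each called 9 members, and a single fit over all 12 libraries called 8. Over all genes these tests called 538 higher and 533 lower, 494 and 466, and 373 and 258. Without WT IR replicate 1, 8 members were called, all but Sprr1a, beside 365 genes called higher over all. Without WT IR replicate 2 or 3 it was 3, beside 62 and 88. Without any 1 of the 3 WT baseline libraries it was 1. The calls over all genes fell there as well, from 234 higher to 45, 68 and 41 without replicates 1, 2 and 3. With the replicate number as a block, Anxa2 (1.29, adjusted p = 0.0427) and Sprr1a (1.67, adjusted p = 0.0349) joined the 5 called in WT, for 7 in all, while the calls over all 16015 genes went from 234 higher and 142 lower to 428 and 559. In Tet2-/- all 9 remained called under each of these settings that applied there.

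The windows just upstream of the counted transcripts show how the members differ in the letters at their starts. Each window is the 250 bases before the transcript start in mm9, written 5′ to 3′ on the strand of the gene, and it was read from that genome for the members with the largest rises in Tet2-/-, Krt20 and Lcn2, and for the 3 members with a match to the AP-1 motif, Sprr1a, Sox9 and Anxa2. AP-1 is the dimer of Jun and Fos proteins. Capitals mark matches to any of the motifs searched:
Krt20 (chr11:99299468-99299717, minus strand): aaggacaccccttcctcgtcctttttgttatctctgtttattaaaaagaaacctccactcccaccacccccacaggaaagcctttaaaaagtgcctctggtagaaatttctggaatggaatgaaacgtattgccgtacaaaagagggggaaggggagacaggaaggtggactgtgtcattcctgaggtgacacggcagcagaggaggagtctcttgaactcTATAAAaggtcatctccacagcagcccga
Lcn2 (chr2:32243260-32243509, minus strand): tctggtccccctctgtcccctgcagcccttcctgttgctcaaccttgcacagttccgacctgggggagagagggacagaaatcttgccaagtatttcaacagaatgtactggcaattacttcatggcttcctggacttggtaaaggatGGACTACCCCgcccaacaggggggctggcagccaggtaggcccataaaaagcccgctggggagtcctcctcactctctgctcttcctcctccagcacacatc
Sprr1a (chr3:92289804-92290053, minus strand): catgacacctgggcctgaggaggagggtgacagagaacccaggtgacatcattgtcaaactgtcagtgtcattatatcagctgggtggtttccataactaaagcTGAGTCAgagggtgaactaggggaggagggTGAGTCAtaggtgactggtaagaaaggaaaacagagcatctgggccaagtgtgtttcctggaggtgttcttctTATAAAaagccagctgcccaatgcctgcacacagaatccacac
Sox9 (chr11:112643274-112643523, plus strand): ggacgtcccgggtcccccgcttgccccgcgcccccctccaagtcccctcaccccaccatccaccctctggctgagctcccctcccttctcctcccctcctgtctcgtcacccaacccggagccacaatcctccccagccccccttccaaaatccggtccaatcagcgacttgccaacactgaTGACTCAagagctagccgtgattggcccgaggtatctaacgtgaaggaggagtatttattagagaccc
Anxa2 (chr9:69301240-69301489, plus strand): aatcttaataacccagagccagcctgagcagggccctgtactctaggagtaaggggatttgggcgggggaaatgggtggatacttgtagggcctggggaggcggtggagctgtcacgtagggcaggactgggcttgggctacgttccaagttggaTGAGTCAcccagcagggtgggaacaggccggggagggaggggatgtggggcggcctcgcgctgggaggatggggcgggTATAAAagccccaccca

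The motifs, each sought on both strands, were AP-1 as TGANTCA, STAT as TTCNNNGAA, the TATA box as TATAAA and a loose form of the NF-kB motif. AP-1 matched in 3 of the 9 members, against 6.17% of 24348 windows of the same length. Sprr1a held 2 AP-1 matches, 1 starting 146 bases and 1 starting 116 bases before the transcript start, and Sox9 and Anxa2 held 1 each, at 68 and 95 bases. The windows of Sox9 and Clu, unlike those of the other members, were not found letter for letter in the RefSeq promoter sequences. Their distances hold for the mm9 start used here. The TATA box matched in 4 members, Krt20, Anxa2, Sprr1a and Spp1, against 11.997% of windows. In Krt20, Sprr1a and Anxa2 it stood 29, 43 and 17 bases before the start, and in Spp1 211 bases before it. The NF-kB motif matched in Lcn2, Clu and Cd44 and are common, in 50.5% of windows. The STAT letters were in none of the 9 and in 6.86% of windows. A match is a run of letters in the window and was not tested as a binding site.

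Before IR, no member was called between the genotypes, beside 0.0124% of 16086 genes called higher and 0.0% called lower by the same rule. All 9 log2 fold changes of Tet2-/- over WT were below 0, against a median over all genes of 0.00402, but those of Havcr1, Cd44, Clu and Spp1 turned above 0 when some single library was dropped. The 2 lowest were those of the epithelial barrier genes Krt20 and Sprr1a. At an unadjusted p under 0.05 there were 3 of 9, Krt20, Sprr1a and Anxa2, beside 11.8% of all genes, and the same 3 had Tet2-/- FPKM wholly below WT, as 16.5% of all genes did. Mean Krt20 was 0.874 ± 0.572 FPKM in WT and 0.0443 ± 0.0203 in Tet2-/- (SD, n = 3 each), a log2 fold change of -4.09 ± 0.70 with adjusted p = 0.206 by the edgeR test. Sprr1a was at 26.6 ± 11.002 in WT and 3.81 ± 3.05 in Tet2-/- (-2.74 ± 0.63, adjusted p = 0.230). Anxa2 was at 49.0 ± 12.9 in WT and 32.8 ± 4.47 in Tet2-/- (-0.49 ± 0.19, adjusted p = 0.398). The other 6 lay between -0.52 and -0.04, and for Havcr1, the nearest to 0, the 95% confidence interval ran from -1.78 to 1.70. DESeq2 and the edgeR exact test each called 2 members here, Krt20 and Sprr1a, both lower, as were 321 of the 345 genes that DESeq2 called and 275 of the 294 that the exact test called. Without WT baseline replicate 1 the main test called 1, Krt20 (-3.62 to -4.56 over the 6 fits that left out 1 library, adjusted p from 0.0445 to 0.558). Over all genes that fit called 3 higher and 7 lower.

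Urothelial genes also had lower baseline values in Tet2-/-. Urothelium lines the renal pelvis, and the uroplakins are its surface proteins. The 8 urothelial genes summed to 44.4, 132 and 77.1 FPKM at WT baseline and 39.4, 6.22 and 8.06 at Tet2-/- baseline, with none at 0 in any library. The median log2 fold change of the 8 at baseline was -2.48, and none of them was called. Sprr1a stood in a near fixed proportion to the 4 uroplakin genes Upk1a, Upk1b, Upk2 and Upk3a, at 0.818, 0.936 and 0.902 times their summed FPKM in WT and 0.840, 0.759 and 0.763 times in Tet2-/-, while that sum itself ran from 1.66 to 38.0 FPKM across the 6 libraries. Krt20 did not keep such a proportion at baseline, with 0.00444 to 0.0404 times the sum. After IR, Sprr1a was at 1.27 to 14.0 times the sum and Krt20 at 0.481 to 41.6 times, both wholly above their baseline values. Within the IR libraries the uroplakin sum was 55.4, 26.8 and 10.3 FPKM in WT and 9.60, 11.1 and 18.2 in Tet2-/-. The part of pelvic tissue in the baseline difference was not tested.

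**Figure D3:**
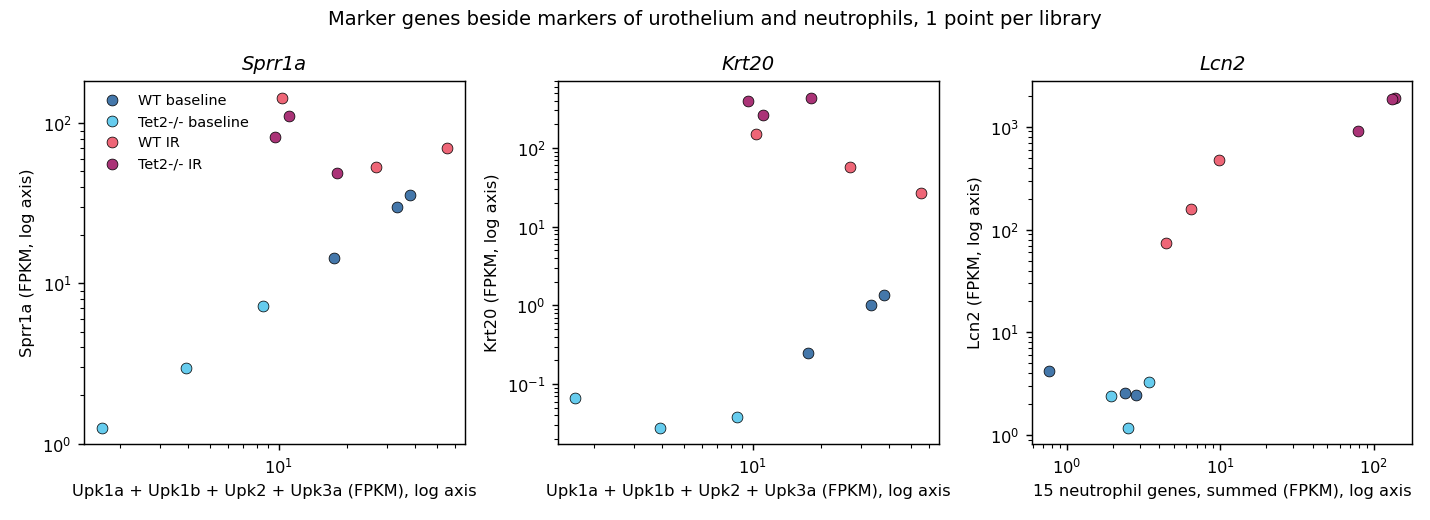
Sprr1a and Krt20 against the summed FPKM of 4 uroplakin genes, and Lcn2 against the summed FPKM of 15 neutrophil genes, 1 point per library and all axes logarithmic. The 6 baseline points of Sprr1a lie along a line of constant proportion, 0.759 to 0.936 times the uroplakin sum, and the IR points of Sprr1a and Krt20 lie above their baseline proportion, while the 3 Tet2-/- IR points stand apart from all others in neutrophil genes.

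After IR, the libraries labelled Tet2-/- had higher FPKM than WT for 7 of the 9 members with no overlap, all but Havcr1 and Sprr1a, where 22.0% of all genes had Tet2-/- wholly above WT. Of the 9, only Cd44 was called by the main test, beside 2.3% of 16186 genes called higher and 3.85% called lower. Cd44 was 5.52-fold higher (log2 2.46 ± 0.40, adjusted p = 0.0176), with 0.761 ± 0.314 FPKM in WT and 4.59 ± 1.79 in Tet2-/- (SD, n = 3 each). Lcn2 fell just outside, at 236 ± 212 FPKM in WT and 1560 ± 566 in Tet2-/- (2.64 ± 0.66, adjusted p = 0.0502). At an unadjusted p under 0.05 there were 6 of 9, against 28.9% of all genes.

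The remaining members divided into 3 kinds. Sox9 (2.09 ± 0.75, adjusted p = 0.121), Krt20 (2.09 ± 0.65, adjusted p = 0.0882), Clu (1.69 ± 0.47, adjusted p = 0.0654), Spp1 (1.60 ± 0.69, adjusted p = 0.175) and Anxa2 (1.31 ± 0.45, adjusted p = 0.111) had estimates of more than 1 on the log2 scale with no overlap of the libraries. Havcr1 had 481 ± 238 FPKM in WT and 984 ± 403 in Tet2-/-, with a log2 fold change of 0.93 ± 0.52 (adjusted p = 0.281) and a 95% confidence interval from -0.29 to 2.15. Sprr1a had 89.3 ± 48.6 and 81.1 ± 31.1 FPKM, with -0.31 ± 0.45 (adjusted p = 0.688) and an interval from -1.36 to 0.75, so that differences of up to 1.68-fold higher or 0.391-fold remain within its error. These comparisons use the same WT IR and Tet2-/- IR libraries as the IR effects above.

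The number of calls after IR varied with the test and the libraries used. DESeq2 called 7 (all but Havcr1 and Sprr1a), the edgeR exact test 6 and a single fit over all 12 libraries 6. Over all genes these tests called 838 higher and 909 lower, 756 and 854, and 714 and 879, against 373 and 623 in the main test. Without WT IR replicate 2 there were 3 calls and without WT IR replicate 3 there were 2, beside 319 and 87 genes called higher over all. Without WT IR replicate 1, which was the lowest IR library for most members, Cd44 was still the only call (2.15, adjusted p = 0.0303), beside 65 genes called higher over all. The estimates of the others above 0 fell there to 0.57 for Havcr1 up to 2.20 for Lcn2. Cd44 stayed called in each of the 6 fits that left out 1 library, from 2.15 to 2.65 (adjusted p from 0.0303 to 0.0453).

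**Figure D4:**
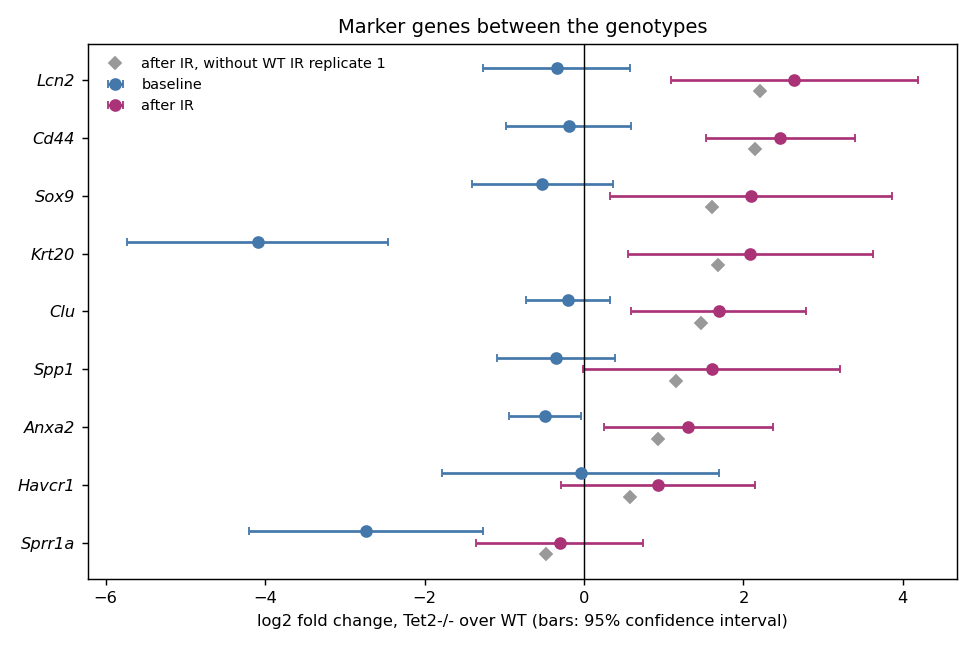
Log2 fold change of Tet2-/- over WT at baseline (blue) and after IR (purple) with 95% confidence intervals from the edgeR fit, and the estimate after IR without WT IR replicate 1 (grey diamonds, no interval). Baseline intervals cover 0 for 6 of the 9, lying below it for Krt20, Sprr1a and Anxa2, and the estimates after IR are above 0 for all but Sprr1a.

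The test of the difference between the IR effects, which uses all 12 libraries, put 3 members past an adjusted p of 0.05, all with the larger rise in Tet2-/-, beside 3.79% of 16741 genes with a higher and 5.39% with a lower effect there. The excess on the log2 scale was 6.18 ± 1.09 for Krt20 (adjusted p = 0.00888), 2.99 ± 0.83 for Lcn2 (adjusted p = 0.0463) and 2.68 ± 0.54 for Cd44 (adjusted p = 0.0142), all by the edgeR test. The 3 reached it from different sides. For Cd44 and Lcn2 the baselines of the genotypes overlapped and the IR levels were apart, while for Krt20 the lower Tet2-/- baseline gave more of the excess (4.09 of it) than the higher IR level (2.09). That order for Krt20 depends on the processing. Over the alternatives its genotype estimate ran from -4.56 to -0.79 at baseline and from 1.68 to 3.11 after IR, and its excess fell as low as 3.31. Sprr1a, with 2.47 (adjusted p = 0.0826), had its estimate wholly from the baseline side. The other 5 ranged from 1.01 for Havcr1 (adjusted p = 0.559, 95% confidence interval -1.22 to 3.24) to 2.64 for Sox9 (adjusted p = 0.103), with Clu at 1.91 (adjusted p = 0.0536) and Anxa2 at 1.82 (adjusted p = 0.0559) just outside. With the replicate number as a block, Clu (1.96, adjusted p = 0.0299) and Anxa2 (1.86, adjusted p = 0.0319) passed as well, for 5 in all, while the calls over all 16741 genes went from 634 higher and 902 lower to 821 and 1015. DESeq2 called 8 members and limma on log2(FPKM + 0.1) called 6. Over all genes they called 1222 higher and 1593 lower, and 1126 and 681. Krt20 and Cd44 were called in each of the 12 fits that left out 1 library, but Lcn2 was lost in 10 of the 12, with adjusted p up to 0.108, and remained only without WT IR replicate 2 or Tet2-/- IR replicate 3. Without WT IR replicate 1 the 3 called were Krt20, Cd44 and Anxa2 (1.43, adjusted p = 0.0346), beside 234 genes higher over all. Without WT IR replicate 2 there were 6 calls, beside 980, and without Tet2-/- IR replicate 3 there were 4, beside 708. Without WT IR replicate 3, Tet2-/- IR replicate 1 or 2, Tet2-/- baseline replicate 2 or 3 or any 1 of the WT baseline libraries there were 2. In those fits 147 to 425 genes were called higher over all. Leaving out WT baseline replicates 2 and 3 together leaves 1 library in that group, so calls were not counted there.

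**Figure D5:**
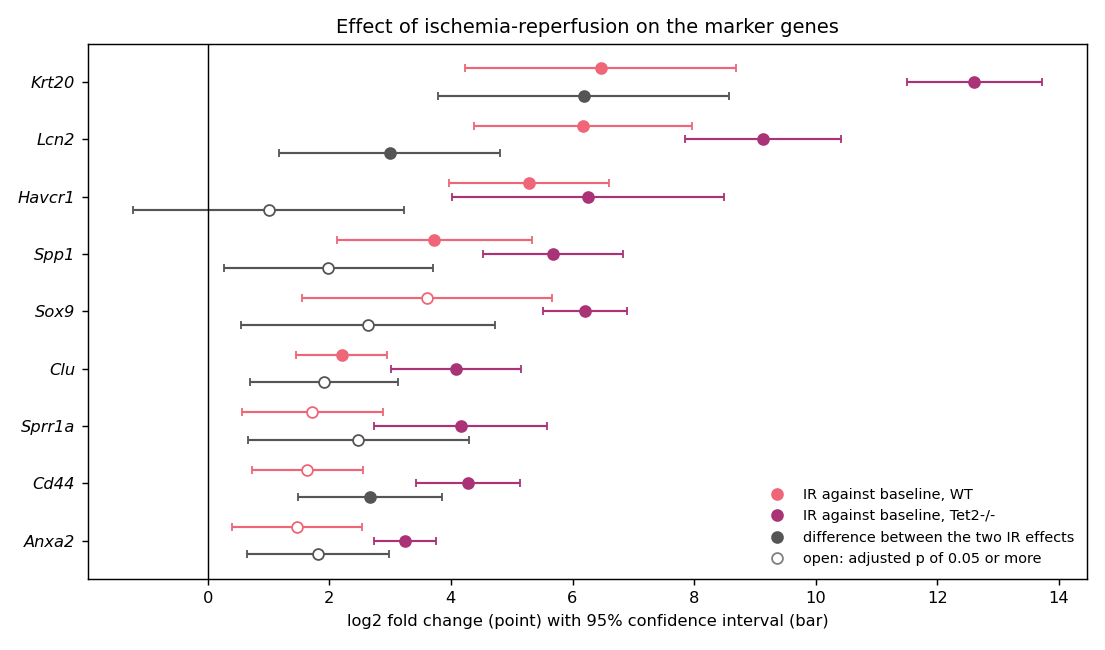
Log2 fold change of IR over baseline in WT (pink) and Tet2-/- (purple), and the difference between them (grey), for the 9 genes, with 95% confidence intervals from edgeR and open points where the adjusted p was 0.05 or more. All 27 estimates lie above 0, filled for 5 genes in WT, 9 in Tet2-/- and 3 differences.

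Neutrophil genes moved with these differences. The 15 genes summed to 0.767 to 3.42 FPKM over the 6 baseline libraries, 4.44 to 9.86 in WT IR and 79.6 to 138 in Tet2-/- IR. In WT IR 2 or 3 of the 15 were at 0, Mpo and Elane in every library, and in Tet2-/- IR at most 1. The filter on low counts kept 12 of the 15 in the comparison after IR, against 6 with IR in WT and 4 between the genotypes at baseline. Some were thus tested only through their counts in Tet2-/- IR, so the calls do not speak for the whole list. Of those 12, 10 were called higher in Tet2-/-, beside 2.3% of all genes. Retnlg (5.01 ± 0.52, adjusted p = 0.0104), Mmp8 (4.87 ± 0.68, adjusted p = 0.0131) and Il1r2 (4.78 ± 0.47, adjusted p = 0.00989) were the largest named. Their mean FPKM in WT IR was 0.371, 0.0383 and 0.109. Lcn2 is itself a neutrophil granule protein, and its FPKM per summed neutrophil FPKM was 16.7, 48.3 and 24.4 in WT IR and 13.9, 14.1 and 11.4 in Tet2-/- IR. Lcn2 thus exceeded the neutrophil genes by more in WT IR than in Tet2-/- IR, in every library. At baseline, over neutrophil sums of at most 3.42 FPKM, the ratio was 0.873, 5.53 and 1.09 in WT. It was 1.22, 0.976 and 0.476 in Tet2-/-, so it was higher after IR in both genotypes. Of the 16 macrophage genes 2 were called higher after IR in Tet2-/-, Itgam (2.89 ± 0.65, adjusted p = 0.0391) and Cd14 (2.08 ± 0.43, adjusted p = 0.0313), with sums of 38.9 to 83.9 FPKM in WT IR and 72.8 to 262 in Tet2-/- IR. Both of these calls were lost in 5 of the 6 fits that left out 1 library, and the 3 neutrophil calls named in none. Leukocytes carry Cd44 as well, and their part in the differences of Lcn2 and Cd44 was not tested.

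The order of the members by FPKM, which is per length and so allows levels of different genes to be set side by side, changed with IR below the top. Spp1 led all 4 groups, at 296 FPKM in WT baseline, 219 in Tet2-/- baseline, 4093 in WT IR and 13618 in Tet2-/- IR, always apart from the next. At WT baseline it was followed by Clu and Anxa2, which overlapped, then Sprr1a and Havcr1, which overlapped, Lcn2, Krt20 and Cd44, which overlapped, and Sox9. In WT IR, Havcr1 (481), Clu (243), Lcn2 (236), Anxa2 (140), Sprr1a (89.3) and Krt20 (78.0) formed a chain in which each overlapped the next. In Tet2-/- IR, Lcn2 (1560) was second by mean, overlapping Havcr1 (984), which overlapped Clu (853), and Anxa2 (372) and Krt20 (366) overlapped each other. Sox9 and Cd44 stayed under 7 FPKM in every library and overlapped in both IR groups.

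The pattern of the members over the 12 libraries was compared by the root mean square distance between standardized log2(FPKM + 0.1) values. Their mean profile was nearest to that of Spp1 (0.144) and Lcn2 (0.145) among the members and farthest from that of Sprr1a (0.605), and 3130 of 12924 other genes were nearer to it than Sprr1a. Over the 12 libraries Lcn2 and Spp1 were each other's nearest member (0.183), as were Sox9 and Anxa2 (0.231). Clu was nearest to Spp1 (0.201), Krt20 to Lcn2 (0.245), Cd44 to Anxa2 (0.251), Havcr1 to Krt20 (0.301) and Sprr1a to Krt20 (0.507). Within the 6 IR libraries the partners changed for all but Sox9, and Spp1 and Anxa2 were each other's nearest (0.246). There Sox9 was nearest to Anxa2 (0.280), Lcn2 to Sox9 (0.303), Cd44 to Lcn2 (0.321), Clu to Cd44 (0.346), Havcr1 to Anxa2 (0.384), Krt20 to Havcr1 (0.463) and Sprr1a to Spp1 (1.19). The non-members nearest to the mean profile over 12 libraries were Eif2s1 (0.108), Pgm1 (0.112), Arpc1b (0.123), BC052040 (0.128) and Slc25a24 (0.132), and the farthest were Mpc2, Grb7, Cbs, Nop9 and Ppil6 (1.91 each). Slc25a24, a mitochondrial carrier, went from 1.12 and 0.572 FPKM at WT and Tet2-/- baseline to 5.40 and 18.0 after IR. Cbs, an enzyme of cysteine synthesis, went the other way, from 111 and 132 to 49.97 and 18.9.

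Other genes of injury and repair, 42 in number, also rose with IR in part. The shares over all genes, to be read beside this list and those below, were 1.46% called higher and 0.887% lower with IR in WT. They were 12.7% and 11.6% with IR in Tet2-/-, and 2.3% and 3.85% between the genotypes after IR. For the difference between the IR effects they were 3.79% and 5.39%. In WT, 11 of the 41 tested were called higher with IR and 0 lower (median log2 fold change 1.13), among them Fgg, the fibrinogen gamma chain (4.79 ± 0.91, adjusted p = 0.0427), Timp1, a metalloproteinase inhibitor (4.56 ± 0.59, adjusted p = 0.0151) and Fosl1, an AP-1 subunit (4.34 ± 0.84, adjusted p = 0.0465). In Tet2-/-, 31 of 42 were called higher and 1 lower (median 2.44). Between the genotypes after IR, 5 were called higher and 1 lower (median 1.13, against 0.04 over all genes). Those higher included Timp1 (2.50 ± 0.62, adjusted p = 0.0494) and the cell cycle inhibitor Cdkn1a (2.22 ± 0.49, adjusted p = 0.0362), and the 1 that was lower was complement C3 (-1.73 ± 0.26, adjusted p = 0.0155). Of the fits that left out 1 library, the calls after IR were lost in 5 of 6 for Timp1, 6 of 6 for Cdkn1a and 0 of 6 for C3, and the calls in WT in 5 of 6 for Fgg and Fosl1 and 3 of 6 for Timp1. At baseline 0 of 41 were called, and 9 of 42 passed the test of the difference between the IR effects, each with the larger rise in Tet2-/-.

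Among 24 binding partners and processing enzymes of the members, S100a10, the partner of Anxa2, was the only 1 of 21 tested called with IR in WT (1.53 ± 0.23, adjusted p = 0.0252). In Tet2-/-, 9 were called higher and 2 lower, beside 12.7% and 11.6% of all genes. After IR the genotypes differed in 4 of 22. Mmp9, a gelatinase that cleaves osteopontin (4.10 ± 0.73, adjusted p = 0.0218), Itgb3, the beta subunit of an osteopontin receptor (2.05 ± 0.33, adjusted p = 0.0178), and Msn, the moesin that links CD44 to actin (1.30 ± 0.24, adjusted p = 0.0229), were higher in Tet2-/-. Lrp2, the proximal tubule endocytic receptor megalin, which takes up filtered NGAL and clusterin, was lower (72.0 FPKM in WT and 21.8 in Tet2-/-, -1.81 ± 0.22, adjusted p = 0.0114). Leaving out 1 library at a time lost the call of Lrp2 in 0 of 6 fits, of Itgb3 in 2, of S100a10, Mmp9 and Msn in 4 each.

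Of 32 relatives of the members by family, 2 of the 25 tested were called higher with IR in WT, the small proline-rich gene Sprr2g (4.35 ± 0.86, adjusted p = 0.0482) and the annexin Anxa3 (3.23 ± 0.53, adjusted p = 0.0303), and 12 of 27 in Tet2-/-, none lower in either. After IR, 3 were higher in Tet2-/-, among them Sprr2f (5.48 FPKM in WT and 122 in Tet2-/-, 4.36 ± 0.92, adjusted p = 0.0329) and Sprr2g (6.08 and 56.5 FPKM, 3.10 ± 0.66, adjusted p = 0.0338). The calls of these relatives were lost in 4 or 5 of the 6 fits that left out 1 library. The estimate for Sprr1a, of the same family, was -0.31.

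Part of the differentiated tubule genes fell. Of 28 proximal tubule genes 0 were called higher with IR and 5 lower in WT (median -0.70, with 6 of the 28 estimates above 0), and 0 higher and 21 lower in Tet2-/- (median -1.82). Slc7a13, a cystine transporter subunit (-1.98 ± 0.25, adjusted p = 0.0151), Miox, of inositol breakdown (-1.77 ± 0.23, adjusted p = 0.0161), and Ass1, of arginine synthesis (-1.68 ± 0.16, adjusted p = 0.00839), fell in WT. After IR 10 of the 28 were lower in Tet2-/- than in WT (median -1.22), led by Slc7a13 (-3.22 ± 0.41, adjusted p = 0.0116), the water channel Aqp1 (-2.21 ± 0.39, adjusted p = 0.0217) and the protease Napsa (-1.95 ± 0.37, adjusted p = 0.0253). Of 12 thick limb and distal genes 1 was lower after IR in Tet2-/-, the claudin Cldn10 (-1.61 ± 0.20, adjusted p = 0.0114), and of 14 collecting duct genes 1, the anion exchanger Slc4a1 (-2.67 ± 0.65, adjusted p = 0.0485). Beside 3.85% of all genes called lower, 1 call in a list of this size says little about the list. None of the genes of fibroblasts (10), endothelium (9), podocytes (6), lymphocytes (7 tested) and adipocytes (7 tested) was called between the genotypes after IR. The podocyte sums were nonetheless apart, at 4.73 to 28.2 FPKM in WT IR and 49.2 to 92.3 in Tet2-/- IR, with all 6 estimates above 0 (median 1.74). With IR in Tet2-/-, 5 of 6 podocyte genes were called higher (median 1.80), from sums of 16.1 to 24.3 FPKM at baseline. The macrophage genes Cd68 (2.88 ± 0.28, adjusted p = 0.00839) and Cd14 (2.25 ± 0.43, adjusted p = 0.0444) were the 2 of 16 called higher with IR in WT.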

How the data were processed

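Whole-kidney RNA-seq of 12 libraries was used. The authors used STAR for alignment to mm9 and HOMER for counting over RefSeq transcripts, and deposited expected counts, in steps of 0.5 (38.7% of values not whole), and FPKM, scaled by the authors to transcript length and mapped total. Versions were not given in the sources used here. Of 34600 transcripts, the 1 with the highest total was kept for each of 24421 symbols. The counts were rounded and tested in edgeR 4.0.16 (R 4.3.3) with TMM factors, filterByExpr and the quasi-likelihood F test, on the 6 libraries of each comparison (12 for the interaction), with Benjamini-Hochberg adjustment over all genes. Calls needed an adjusted p under 0.05 and, outside the interaction, a log2 fold change past 1. SE is the log2 fold change over the root of F. The procedure was tested on simulated data. DESeq2 1.42.0, limma 3.58.1 and other settings were alternatives. Intervals at this depth cover the spread between libraries. Members, lists and named genes (all 9 members, Tet2, up to 3 called genes per list and direction with the largest change in the IR effect in WT or the genotype comparison after IR, with a mean of at least 1 FPKM in either group, and the 5 nearest and 5 farthest profiles) were chosen with earlier results of these data known. A gene that this rule would name is not reported here.

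The labels number replicates 1 to 3 in each group and do not say whether equal numbers share a litter or day. The study's methods describe different mice for baseline and IR, so an equal number does not mark the same animal. Deviations from the group means of same-numbered libraries correlated at 0.349, 0.349 and 0.344 for baseline and IR in WT, and at 0.120, 0.350 and 0.202 in Tet2-/-. On these correlations alone, equal numbers were taken as possible pairs in the IR comparisons. The main estimates, SE and adjusted p come from fits without pairing, and the fits with the replicate number as a block are given beside them. Promoter windows were read from the NCBIM37 (mm9) genome.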

Additional observations from a re-analysis of the deposited data

Results flagged for a closer look

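The effect of IR differed between the genotypes, by the edgeR test of the difference itself over 12 libraries, for 3 members and for Tet2. Krt20 rose by 6.18 more on the log2 scale in Tet2-/- than in WT (adjusted p = 0.00888), with all 3 libraries of each IR group above all baseline libraries of their genotype. Its baseline counts in Tet2-/- were 5.5, 19.5 and 5.0. Cd44 rose by 2.68 more (adjusted p = 0.0142). Lcn2 rose by 2.99 more (adjusted p = 0.0463), a call lost in 10 of the 12 fits that left out 1 library, while Krt20 and Cd44 were lost in none of them. Tet2 itself changed by -2.001 (adjusted p = 0.0285), since it went from 12.1 ± 3.998 FPKM at Tet2-/- baseline to 2.53 ± 0.723 after IR, against 7.58 ± 1.47 and 5.72 ± 3.13 in WT (SD, n = 3 each). The Tet2 call was lost in 7 of 22 alternatives, 4 of them fits without 1 library.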

How the results depend on the processing

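The 9 calls of the IR effect in Tet2-/- held under all alternatives, and no member's log2 fold change turned its sign in either IR effect or the interaction. For the IR effect in WT (5 called), DESeq2 and the edgeR exact test called 9, all 12 libraries in a single fit 8, an unadjusted p 9, and leaving out 1 library 1 to 8. Leaving out WT baseline replicates 2 and 3 together leaves 1 library in that group, so its calls are not counted here or for the interaction. For the genotype at baseline (0), DESeq2, the exact test and an unadjusted p with the same fold threshold called 2 each, and leaving out 1 library 0 to 1. For the genotype after IR (1), DESeq2 called 7, the exact test, the 12-library fit and an unadjusted p 6 each, no filter on low counts and a mean FPKM of at least 1 called 2 each, limma on log2(FPKM + 1) 4 and on log2(FPKM + 0.1) 3, and leaving out 1 library 1 to 3. For the interaction (3), DESeq2 and an unadjusted p called 8, library sizes alone, a mean FPKM of at least 1 and limma on log2(FPKM + 1) 5 each, limma on log2(FPKM + 0.1) 6, and leaving out 1 library 2 to 6. Over all genes, the fits that left out 1 library called 41 to 365 higher for the IR effect in WT. They called 65 to 319 higher after IR and 147 to 980 for the interaction. The cause was not tested. With the replicate number as a block the calls were 7 in WT, 9 in Tet2-/-, 0 at baseline, 5 after IR and 5 for the interaction, with the IR effects and the interaction taken up beside those results. Between the genotypes same-numbered libraries correlated at -0.173, -0.150 and 0.0524 at baseline and -0.000229, 0.206 and 0.303 after IR, so they share only a number there. Leaving out 1 library turned the sign of small baseline changes, with ranges of -0.55 to 0.041 for Cd44, -0.31 to 0.011 for Clu, -0.91 to 0.47 for Havcr1 and -0.59 to 0.036 for Spp1, and of Sprr1a after IR, -0.60 to 0.32 (0.32 without WT IR replicate 3).

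Library sizes alone in place of TMM moved the median of all genes from 0.04 to 0.27 in the IR effect in Tet2-/-, where 2860 genes were then called higher and 1397 lower against 2078 and 1896, and from 0.10 to 0.24 in the interaction (1129 and 700 against 634 and 902). DESeq2 called 538 higher and 533 lower genes for the IR effect in WT against 234 and 142, 24 and 321 at baseline against 2 and 0, and 838 and 909 after IR against 373 and 623. Of 31 calls of named genes outside the members, 22 were lost in 2 to 6 of the 6 fits that left out 1 library, and 9 in none: Ass1 and Cd68 with IR in WT, and C3, Lrp2, Slc7a13, Cldn10, Retnlg, Mmp8 and Il1r2 between the genotypes after IR. At Tet2-/- baseline Krt20 rested on 5.0 to 19.5 counts and Sox9 on 14.0 to 35.0.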
